A study of Mus musculus with 24 samples.

Results

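Expression of 10 genes of the endoplasmic reticulum (ER) stress response was followed in mouse brain endothelium: Hspa5, Hyou1, Calr, Pdia4, Creld2, Dnajb9, Sdf2l1, Manf, Xbp1 and Ddit3. They were taken by gene symbol from a list drawn up with earlier results of these data known, with no threshold on their values, and are 10 of the 53465 genes listed. All 10 passed the filter on low values (5 or more reads in 6 or more mice of 1 genotype), as did 15493 genes in all. Cells were sorted for the endothelial surface protein CD31 from single C57BL/6J brains, taken every 4 h from ZT2 to ZT22 of a light-dark cycle in which ZT0 is lights-on. The 12 control mice were Bmal1fl/fl and the 12 mutant mice were Bmal1fl/fl; Tie2cre, with 2 mice of each genotype at each time point, so every mouse carried floxed Bmal1 alleles and only the mutants carried Cre. The Tie2 (Tek) promoter drives Cre in endothelium and also in blood cells. No group with Cre and unfloxed Bmal1 was analysed here, so Cre itself and loss of Bmal1 cannot be told apart.

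Proteins that enter the secretory pathway are folded in the ER with the help of chaperones and enzymes that form disulfide bonds. When unfolded protein accumulates, the unfolded protein response is triggered by the sensors IRE1 (Ern1), PERK (Eif2ak3) and ATF6. IRE1 splices Xbp1 mRNA, cleaved ATF6 enters the nucleus, and PERK slows translation while raising ATF4, which acts on Ddit3 (CHOP), Atf3 and Ppp1r15a. XBP1 and ATF6 act on the chaperone genes through the ER stress element, the sequences CCAAT and CCACG separated by 9 bases. Rhythms of 12 h in genes of this response have been described in liver. The comparisons below ask whether the 10 genes depended on endothelial Bmal1, the transcription factor of the circadian clock that binds E-boxes (CACGTG), and on time of day.

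In the annotation (GRCm38, GENCODE vM21) Hspa5 lies at chr2:34771970-34777547, Hyou1 at chr9:44379490-44392369, Creld2 at chr15:88819646-88826683, Xbp1 at chr11:5520659-5525893 and Ddit3 at chr10:127290774-127296288, all on the plus strand. On the minus strand lie Calr at chr8:84841850-84846934, Pdia4 at chr6:47796141-47813430, Dnajb9 at chr12:44205559-44210326, Sdf2l1 at chr16:17130138-17132383 and Manf at chr9:106838312-106891979. Counts cover the exons of each gene, UTRs included. The model of Manf overlaps those of Dcaf1 (opposite strand) and Rbm15b (same strand). That of Ddit3 overlaps Mars on the opposite strand and another protein-coding model, also named Ddit3, on the same strand. The libraries were strand-specific, which does not separate models on the same strand.

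The RefSeq promoters of 8 of the 10 genes were matched (GRCm38.p6, 250 bases before to 50 after the start). Those of Hyou1 and Manf had no entry. The ER stress element, on either strand, was found in 3 of the 8, those of Hspa5, Calr and Creld2, and in 0.119% of all 32851 promoters of the same length. These windows are shown because they hold the element the response is known for, with the CCAAT and CCACG of the element in capitals, or their reverse complements ATTGG and CGTGG where it lies on the other strand; copies outside the element are in lower case. They are given 5′ to 3′ along the gene, at chr2:34771970-34772059 (plus strand), chr8:84847042-84847131 (minus strand) and chr15:88819476-88819565 (plus strand).
Hspa5: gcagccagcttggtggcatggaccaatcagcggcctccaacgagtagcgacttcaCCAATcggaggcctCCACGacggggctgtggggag
Calr: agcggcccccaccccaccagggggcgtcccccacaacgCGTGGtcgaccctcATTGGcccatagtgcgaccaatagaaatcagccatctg
Creld2: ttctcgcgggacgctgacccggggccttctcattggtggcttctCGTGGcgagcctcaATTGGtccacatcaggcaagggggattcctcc

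The element ended 47 bases before the RefSeq start, which can differ from the gene boundary above, in Hspa5, 144 bases before it in Calr and 108 bases before it in Creld2. The E-box CACGTG, the core sequence bound by BMAL1 with CLOCK, was found in the promoters of Calr and Dnajb9 and in 7.15% of all promoters. These stretches are shown, with the E-box in capitals, for reading beside the genotype comparison. They lie at chr8:84847132-84847171 and chr12:44210149-44210198, both on the minus strand.
Calr: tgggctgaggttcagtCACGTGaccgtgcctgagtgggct
Dnajb9: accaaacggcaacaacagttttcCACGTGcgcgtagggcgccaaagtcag

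In Dnajb9 the E-box overlapped a CCACG. Of the parts of the ER stress element, CCAAT was found in 7 of the 8 promoters (37.4% of all promoters) and CCACG in 6 of the 8 (32.8%). The other element of the response, TGACGTGG, was in none of the 8 and in 0.676% of all promoters, and the amino acid response element TGATGNAA, through which ATF4 acts, was likewise in none of the 8 and in 3.97% of all promoters. All motifs were searched on both strands.

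Library totals lay between 6136404 and 6648311 normalized reads. Arntl, the gene for BMAL1, had 1, 166.5 and 468 reads (lowest, median and highest) in controls and 81, 242.5 and 354 in mutants. The count covers the whole gene, while only its floxed part is deleted, so its level does not check the deletion. The 10 brain endothelium markers summed to between 10700 and 17900 CPM (counts scaled to a common library total) in the 24 libraries, against 181 to 4260 for the 8 microglia markers. The 3 choroid plexus markers summed to 10400 CPM in a control library of ZT10 or ZT22, against a median of 1110 in controls. Their part in the values of the 10 genes was not tested. The 8 ZT6 and ZT18 libraries stood apart: their microglia markers summed to between 181 and 303 CPM, against 1570 to 4260 in the other 16, and their mitochondrial share was 2.68% to 3.90%, against 5.78% to 17.4%. Time of day and this difference between libraries therefore cannot be told apart for ZT6 and ZT18. The numbers in the titles are consecutive except in 3 libraries, control replicate 1 at ZT2 and both mutant mice at ZT14, which carry earlier numbers. Within the consecutive run the 8 ZT6 and ZT18 libraries come first, with no other library among them, and the other time points follow. In a bulk sort, less RNA of a gene per cell and fewer cells of the type that holds it cannot be told apart either.

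Levels were compared between genes per kilobase of exon, over all 24 mice. Calr, the calcium-binding lectin chaperone, was the most abundant of the 10 at 1352 reads per kb ± 261 (SD, n = 24), above the next gene in 24 of 24 mice. Hspa5 (BiP), the Hsp70 of the ER and the main sink for unfolded protein, followed at 695 ± 138, and the disulfide isomerase Pdia4 (ERp72) at 584 ± 113. Hspa5 exceeded Pdia4 in 20 of 24 mice. A gap then separated these from Dnajb9 (ERdj4), an Hsp40 co-chaperone of BiP, at 181 ± 41.3, and from the transcription factor Xbp1 at 161 ± 23.5, which differed from each other by less than their spread. Xbp1 counts do not separate the spliced from the unspliced mRNA.

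The next 4 genes could not be ordered. Hyou1 (GRP170), the large Hsp70-like nucleotide exchange factor of BiP, had 98.2 ± 16.4 reads per kb. Creld2, an ER resident that takes part in disulfide exchange, had 96.3 ± 23.9 and was below Hyou1 in 10 of 24 mice. Ddit3, the transcription factor CHOP, had 90.4 ± 33.3, and Manf, a factor that is secreted on ER stress, had 84.0 ± 20.2. The value per kb of Manf is uncertain, because reads of the overlapping Rbm15b are on its strand. Sdf2l1, a partner of BiP and its J-domain proteins, was lowest at 34.8 ± 21.4.

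**Figure D1:**
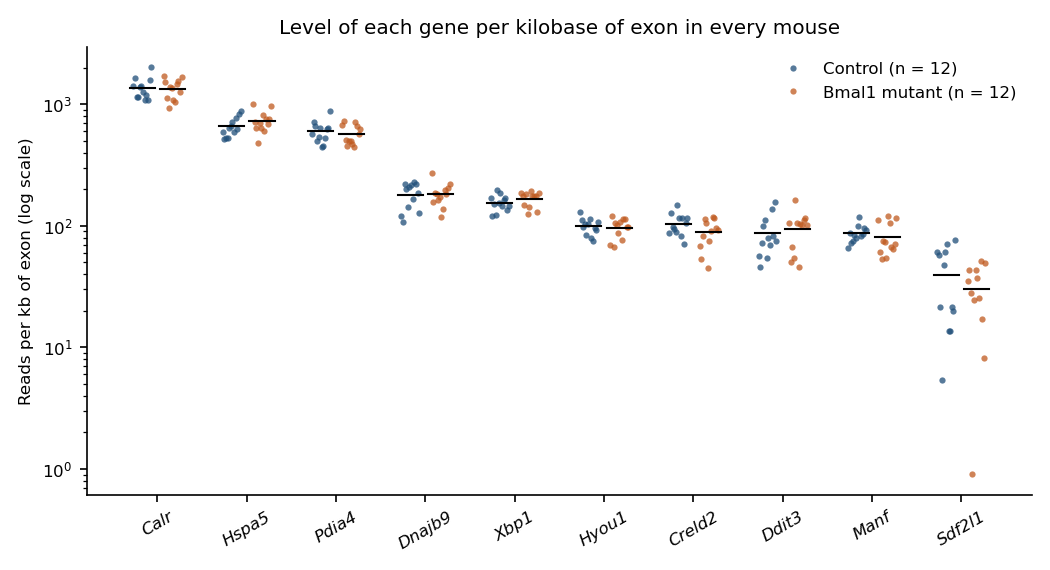
Deposited reads per kilobase of exon (log axis) of the 10 genes, 1 point per mouse, controls in blue and mutants in orange, with a bar at the mean of 12 mice. Calr, Hspa5 and Pdia4 lie above the other 7 genes, and Sdf2l1 spreads most, down to 0.903 reads per kb in 1 mutant mouse.

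Of the near relatives of these genes, Sdf2 was the only one above its relative in the 10: 46.9 reads per kb in controls and 55.7 in mutants, against 39.3 and 30.3 for Sdf2l1. Creld1 had 31.7 per kb in controls, against 104 for Creld2. Cdnf, the relative of Manf, had 2.46 per kb, and Calr3 had 1.87, both too low to pass the filter. Canx, the membrane-bound lectin chaperone, had 852 per kb in controls, against 1361 for Calr. Variation between mice also differed among the 10. The coefficient of variation in controls, after TMM scaling, was 14.8% for Hyou1, 16.6% for Xbp1 and between 19.2% and 26.2% for Hspa5, Calr, Pdia4, Creld2, Dnajb9 and Manf, but 39.1% for Ddit3 and 65.9% for Sdf2l1.

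Loss of Bmal1 was compared over all time points. None of the 10 genes differed between genotypes at an adjusted p under 0.05 in edgeR (0 of 10, beside 0.271% of all genes tested), and none had an unadjusted p under 0.05 (6.95% of all genes). DESeq2 gave Sdf2l1 no adjusted p and called 0 of the other 9, beside 1.11% of all genes to which it gave one. The median log2 fold change of the 10, mutant over control, was -0.03, beside 0.00329 over all genes, with 4 positive and 6 negative values.

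The largest difference by p was that of Hspa5. Its reads were 2202, 2682 and 3749 in controls and 2035, 3004 and 4244 in mutants (lowest, median and highest of 12). The genotypes overlapped over most of their range, and the log2 fold change was 0.15 ± 0.0871 (SE, adjusted p = 0.806). It was 0.0432 ± 0.10 with the i5 index as a covariate and 0.0875 without mutant replicate 1 at ZT2. Creld2 had 97, 138.5 and 203 reads in controls and 61, 125.5 and 161 in the mutants. The log2 fold change was -0.27 ± 0.17 (adjusted p = 0.822), and -0.0508 ± 0.20 with the i5 index as a covariate. The chaperones Hyou1 and Calr stayed within 0.05 of no change on the log2 scale, at -0.04 ± 0.10 and -0.02 ± 0.0804.

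For the abundant genes the intervals were narrow. The 95% interval of the log2 fold change was -0.18 to 0.14 for Calr, -0.23 to 0.09 for Pdia4 and -0.02 to 0.32 for Hspa5. Those of Xbp1 (-0.08 to 0.29) and Hyou1 (-0.24 to 0.16) were of the same width or slightly wider. For Ddit3 (-0.26 to 0.48) and Sdf2l1 (-1.05 to 0.53) the intervals were wider. At this spread, larger differences than for the abundant genes could have gone undetected. The intervals of Manf (-0.34 to 0.11), Dnajb9 (-0.23 to 0.31) and Creld2 (-0.60 to 0.06) lay between these.

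**Figure D2:**
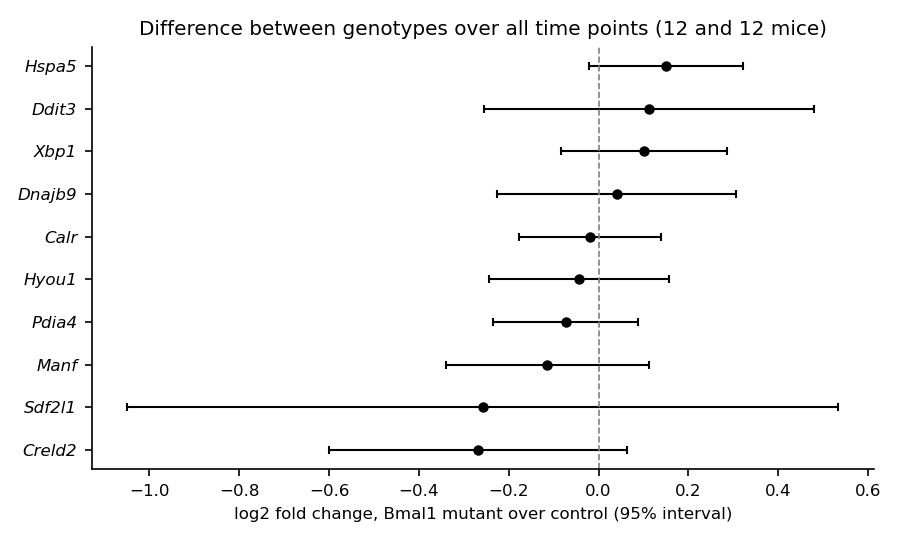
Log2 fold change, mutant over control, of the 10 genes from edgeR with the time point as a factor; points are estimates over 12 and 12 mice and bars are 95% intervals. Every interval includes 0, from the narrow one of Calr to that of Sdf2l1, which reaches -1.05.

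A wider list held 65 other ER genes. Of the 63 that passed the filter, 0 were called by edgeR (0.271% of all genes) and 1 had an unadjusted p under 0.05 (6.95% of all genes), with a median log2 fold change of 0.03. That gene was Sec62, which takes part in translocation into the ER, at -0.20 ± 0.0798 (adjusted p = 0.554). Herpud1, which acts in ER-associated degradation, came next at -0.21 ± 0.11 (adjusted p = 0.762). The 4 sensors had log2 fold changes between 0.000322 and 0.12. Beside these values, the immediate-early genes (Fos, Jun, Egr1 and others) had a median log2 fold change of 0.28 between genotypes, with 9 of 9 positive. Markers of brain endothelium were positive in 9 of 10 (median 0.11), and those of astrocytes (0 of 6 positive, median -0.20), oligodendrocytes (0 of 5, median -0.72) and red blood cells (0 of 5, median -0.34) were all negative. None of these markers was called by edgeR, and their part in the values of the 10 genes was not tested.

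Levels among the 6 time points, both genotypes together, were compared next with no assumed shape. In edgeR, 3 of the 10 genes differed among time points, Calr, Pdia4 and Manf, beside 13.4% of all genes tested, and 4 of the 10 had an unadjusted p under 0.05, with Hspa5 as the fourth (23.7% of all genes). The counts are small and the background is high. DESeq2 called the same 3 and Hspa5, beside 18.2% of all genes. Markers differed among time points too: edgeR called 8 of 10 of brain endothelium, 8 of 8 of microglia and 5 of 6 of astrocytes. It called 3 of 5 of oligodendrocytes, 3 of 5 of neurons, 5 of 6 of pericytes and smooth muscle and 4 of 5 of red blood cells. Choroid plexus markers (3 of 3), immediate-early genes (9 of 9) and cytosolic heat shock genes (7 of 10) were also called. Their part in the values of the 10 genes was not tested.

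Calr had 4081, 4699, 4955 and 4402 reads at ZT2 in the 2 control and then the 2 mutant mice, and 3319, 3300, 3273 and 2664 at ZT6. Reads were 3960, 4042, 3958 and 3890 at ZT10, and 3639, 3111, 3133 and 3004 at ZT14. They were 3432, 3124, 4190 and 4515 at ZT18 and 4520, 5795, 3628 and 4835 at ZT22. Calr was thus low at ZT6 and ZT14 in both genotypes, and at ZT18 in controls, and neither ZT6 nor ZT14 overlapped with ZT2 (adjusted p = 0.0190). The call was lost without mutant replicate 2 at ZT6 (adjusted p = 0.0553).

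Pdia4 was lowest at ZT14, at 1068, 1083, 1122 and 1063 reads in the control and then the mutant mice. At ZT2 it had 1358, 1710, 1622 and 1749 reads, and at ZT22 1522, 2123, 1379 and 1498. The ZT14 mice lay below all mice of ZT2, ZT10, ZT18 and ZT22 and overlapped with those of ZT6, which had 1095 to 1587 reads (adjusted p = 0.0381). Leaving out 1 mouse at a time, the call was lost in 14 of 24 fits, with the highest adjusted p, 0.0820, without mutant replicate 2 at ZT14.

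Manf ran the other way at ZT14, with its highest level there at 354, 417, 428 and 373 reads. It had 187 to 265 reads at ZT6, 190 to 299 at ZT10 and 229 to 301 at ZT18, none of which reached the ZT14 mice, while ZT2 (216 to 395) and ZT22 (248 to 411) overlapped with them (adjusted p = 0.0455). This was the weakest of the 3 calls: it was lost in 18 of 24 fits without 1 mouse, with an adjusted p of 0.138 without mutant replicate 1 at ZT14. Among controls alone, the mice of ZT14 were also the highest of the 12 for Manf and the lowest of the 12 for Pdia4. Among mutants neither held. Manf had 428 and 373 reads at ZT14, but 411 in a mouse of ZT22 and 395 in a mouse of ZT2. Pdia4 had 1122 and 1063 at ZT14, but 1095 in a mouse of ZT6. ZT14 was singled out from these same mice, so neither genotype is a separate check. Hspa5 had 2292 reads ± 272 at ZT6 and 3654 ± 380 at ZT22 (SD, n = 4) with no overlap between these 2 time points, and an adjusted p of 0.0557. Its call was gained in 5 of the fits without 1 mouse, as low as 0.00794 without mutant replicate 1 at ZT2.

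All 3 calls were lost in the 16 libraries of ZT2, ZT10, ZT14 and ZT22 alone (0 of 10), where the adjusted p was 0.258 for Calr, 0.148 for Pdia4 and 0.368 for Manf. Their unadjusted p there was 0.0106, 0.00379 and 0.0223, and calls over all genes fell from 2070 to 176 in this smaller fit. They were lost as well with the i5 index of the library as a covariate, at 0.0633, 0.0653 and 0.597. Among the 16 libraries, those of control mice at ZT2 and ZT10 carried 1 of the 2 i5 indices and the rest carried the other.

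**Figure D3:**
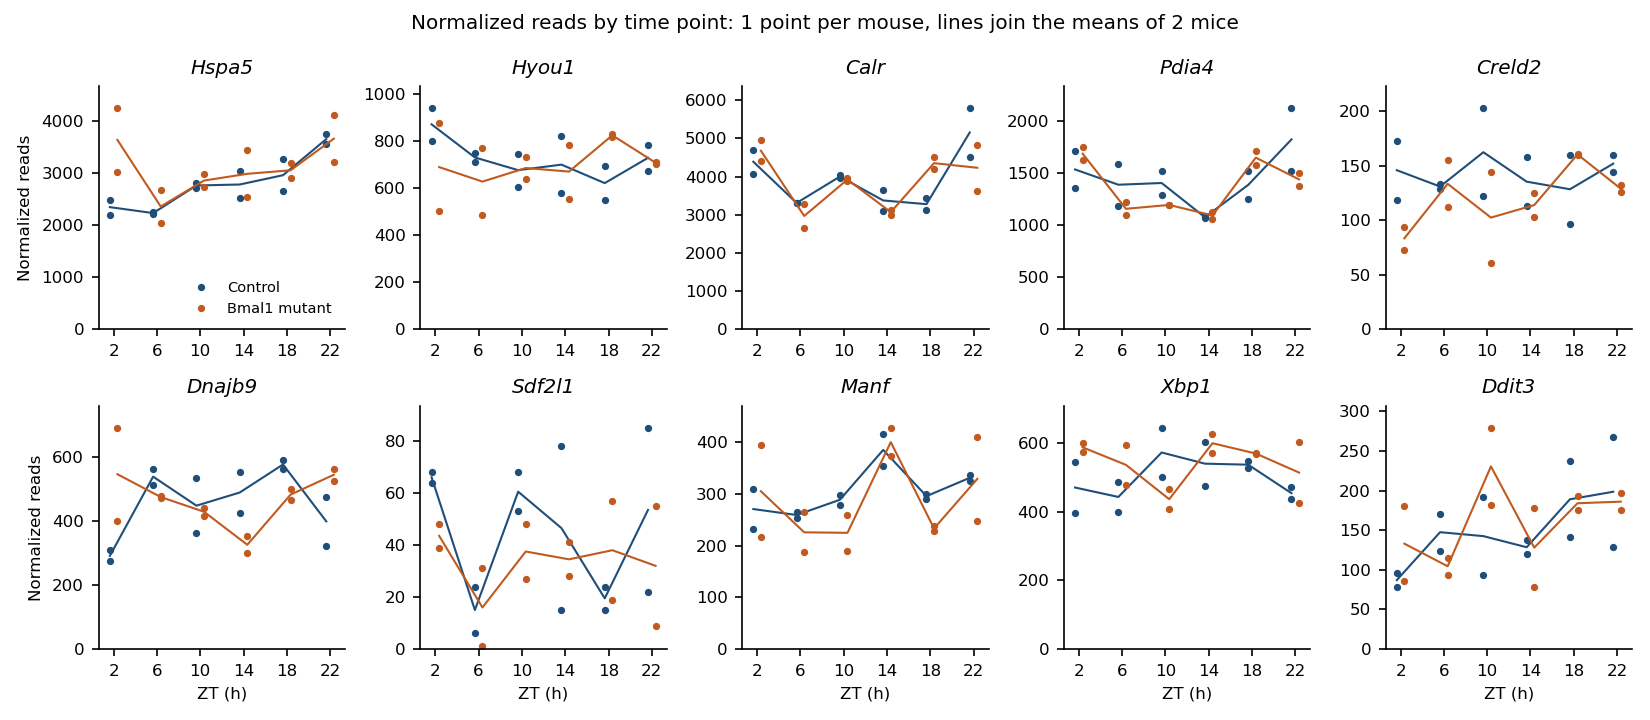
Normalized reads of each of the 10 genes against ZT (h), 1 point per mouse, controls in blue and mutants in orange, with lines through the means of 2 mice. By these means Pdia4 is lowest and Manf highest at ZT14 in both genotypes, and Dnajb9 is lower in controls than in mutants at ZT2 and higher at ZT14.

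Among the other ER genes, 6 of 63 (9.52%) differed among time points, a share below the 13.4% of all genes. These were Ppp1r15a (adjusted p = 1.7e-05), Edem1 (1.8e-05), Atf4 (0.000162), Atf3 (0.00403), Dnajc10 (0.0168) and Erp29 (0.0195). Atf4, Atf3 and Ppp1r15a belong to the PERK arm. None of the 4 sensors was called. In the 16 libraries alone all 6 calls were lost, with adjusted p of 0.0560 for Ppp1r15a, 0.0961 for Atf3 and 0.326 or more for Atf4, Edem1, Dnajc10 and Erp29. The unadjusted p was 0.000657 for Ppp1r15a, 0.00175 for Atf3 and 0.0172 for Atf4, against 0.0886 for Edem1, 0.235 for Dnajc10 and 0.258 for Erp29. With the i5 index as a covariate Dnajc10 (adjusted p = 0.225) and Erp29 (0.111) lost their calls. Ppp1r15a, Edem1, Atf3 and Atf4 kept theirs, at 0.0104 or less. Dnajc10 was lost as well without mutant replicate 2 at ZT18 (0.0619), and Erp29 without mutant replicate 1 at ZT6 (0.0527).

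The question of a rhythm of 24 h was put to each genotype with meta2d, which combines JTK_CYCLE and Lomb-Scargle. None of the 10 genes passed a q of 0.6, the threshold of the study, in controls (0.31% of all genes did) or in mutants (0.0387%). None had an unadjusted p under 0.05 either, beside 2.43% of all genes in controls and 2.27% in mutants. The lowest p in controls was 0.342, for Pdia4, and the lowest in mutants were 0.0588 for Dnajb9 and 0.0962 for Pdia4. These p-values moved with single mice. That of Dnajb9 in mutants ran from 0.000316, without replicate 2 at ZT2 (q = 0.611), to 0.232, that of Pdia4 in mutants from 0.0297 to 0.286, and that of Hyou1 in controls from 0.0324, without replicate 1 at ZT14, to 0.999. An edgeR cosinor called 0 of the 10 in each genotype, with unadjusted p of 0.0288 for Hspa5 in controls, and 0.0192 for Pdia4 and 0.0385 for Dnajb9 in mutants. Relative amplitudes of the fitted cosine ran from 3.04% for Creld2 to 20.4% for Ddit3 in controls and from 5.93% for Xbp1 to 21% for Dnajb9 in mutants.

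Of the wider list, Txndc5, a disulfide isomerase, had the lowest p in controls (0.0113, relative amplitude 36.9%) and Atf6b the next (0.180). In mutants these were the sensors Ern1 (0.00200) and Eif2ak3 (0.0188). None of the 63 passed q of 0.6 in either genotype.

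The difference in the 24 h rhythm between genotypes was tested directly. None of the 10 genes, and 0% of all genes, passed in edgeR. The paper reports that core clock genes cycled in controls and not in mutants. As edgeR called no gene at all, it did not pick these out either. Its result for the 10 genes therefore does not show that their rhythms were alike. DESeq2 called 0 of the 10 and 1 gene in all (0.00645%). Dnajb9 was the only one of the 10 with an unadjusted p under 0.05, at 0.00696 (adjusted p = 1.00), beside 4.26% of all genes. At ZT2 it had 308 and 274 reads in controls against 690 and 401 in mutants, and at ZT22 474 and 323 against 525 and 563. At ZT14 the controls had 551 and 426 reads and the mutants 299 and 352. In controls the reads were 563 and 513 at ZT6, 362 and 533 at ZT10 and 589 and 563 at ZT18; the mutants had 479 and 470, 416 and 441, and 498 and 466. Control mice were thus below mutant mice at ZT2 and ZT22 and above them at ZT6, ZT14 and ZT18, with no overlap at any of these, while ZT10 overlapped.

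No 24 h rhythm of Dnajb9 was called in either genotype, by meta2d or by the edgeR cosinor. Its control means were highest at ZT18 (576 reads) and ZT6 (538), with 447.5 at ZT10 and 488.5 at ZT14 between them. A single 24 h peak therefore describes the controls poorly. The fitted cosine of Dnajb9 peaked at ZT13.9 in controls and at ZT0.584 in mutants, which by itself does not show a shift in phase. Its unadjusted p lay between 0.00126 and 0.0294 over the 32 alternatives and its adjusted p was never below 0.378. The i5 index differed between the genotypes at ZT2 and ZT10, and with the index as a covariate the unadjusted p was 0.00505. From the wider list, Txndc5 (0.00365) and Spcs2, a signal peptidase subunit (0.0166), had the lowest unadjusted p, both with an adjusted p of 1.00.

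At this sampling a 12 h component consists of 2 contrasts, ZT6 and ZT18 against the other time points, and ZT2 and ZT14 against ZT10 and ZT22. In the first, 0 of the 10 genes were called by edgeR, beside 18.7% of all genes (7.21% higher and 11.4% lower in ZT6 and ZT18), and 4 had an unadjusted p under 0.05 (28.4% of all genes). DESeq2 called 2, Calr and Sdf2l1, beside 20.9% of all genes. The 4 genes were lower in ZT6 and ZT18: Calr by a log2 fold change of -0.22 ± 0.0858 (adjusted p = 0.0691), Manf by -0.31 ± 0.12 (0.0877), Sdf2l1 by -1.07 ± 0.45 (0.100) and Hspa5 by -0.21 ± 0.0929 (0.115).

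Sdf2l1 had the widest change and the lowest counts. It had 1, 21.5 and 57 reads in the 8 ZT6 and ZT18 libraries (lowest, median and highest) and 9, 48 and 85 in the other 16. These groups overlapped. At ZT6 alone the 4 mice had 24, 6, 31 and 1 reads, all below the 39 to 68 reads of the ZT2 mice. Calling of Sdf2l1 was gained without mutant replicate 1 at ZT6 (adjusted p = 0.0279) or at ZT18 (0.0348), and that of Calr without mutant replicate 1 at ZT22 (0.0280) or replicate 2 at ZT18 (0.0317). Dnajb9, at 0.26 ± 0.14, was called without mutant replicate 1 at ZT2 only (0.0309). In the same contrast 8 of 10 brain endothelium markers and 5 of 6 pericyte and smooth muscle markers were called higher, and 8 of 8 microglia, 5 of 6 astrocyte, 4 of 5 oligodendrocyte, 4 of 5 neuron, 3 of 3 choroid plexus and 5 of 5 red blood cell markers were called lower by edgeR; their part in the values of the 10 genes was not tested.

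Of the wider list, 10 of 63 genes (15.9%) were called in this contrast, 6 higher and 4 lower in ZT6 and ZT18, a share below the 18.7% of all genes. In the PERK arm, Ppp1r15a, which restores translation, had a log2 fold change of 0.73 ± 0.12 (adjusted p = 3.2e-05) and Atf4 one of 0.55 ± 0.0961 (5.8e-05). Among degradation genes, the mannosidase-like Edem1 fell by 1.00 on the log2 scale (adjusted p = 5.2e-07) and Edem2 by 0.63 (0.00661). Among chaperones, Erp29 fell by 0.47 (0.00160) and Dnajc10, a disulfide reductase, rose by 0.34 (0.00206). The translocation genes Srpr (0.27, adjusted p = 0.0328) and Sec63 (0.24, adjusted p = 0.0333) rose. Calls of Srpr and Sec63 were lost in 6 and 7 of the 24 fits without 1 mouse, with adjusted p up to 0.121 and 0.146. The remaining 2 called genes were Trib3 (higher) and Canx (lower), whose calls were lost in 7 and 16 of these fits. With at least 10 reads in every mouse of a genotype, Srpr (adjusted p = 0.0654) and Sec63 (0.0761) lost their calls too. With no filter Sec63 (0.0550), Trib3 (0.0846) and Canx (0.0894) lost theirs, as did Canx with deposited totals (0.08585). By role, 3 of 11 genes of the transcription factors and the PERK arm were called, 3 of 22 chaperones and folding enzymes, 2 of 13 degradation genes, 2 of 13 translocation genes and 0 of 4 sensors.

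The second contrast compares no ZT6 or ZT18 library, although these share its estimate of the spread and its scaling. None of the 10 genes was called by edgeR or DESeq2, beside 0.781% of all genes in edgeR and 2.79% of those with an adjusted p in DESeq2, and 1 had an unadjusted p under 0.05 (10.8% of all genes). That gene was Ddit3. It had 78, 108 and 180 reads in the 8 mice of ZT2 and ZT14 and 93, 187 and 279 in the 8 mice of ZT10 and ZT22 (lowest, median and highest), so that the groups overlapped. Its log2 fold change was -0.65 ± 0.23 (unadjusted p = 0.00792, adjusted p = 0.211).

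The median log2 fold change of the 10 in this contrast was -0.11, beside -0.02 over all genes, and the other 9 lay between -0.17 (Creld2) and 0.23 (Manf). From the wider list 3 of 63 genes (4.76%) were called, all lower at ZT2 and ZT14 and all of the PERK arm: Ppp1r15a at -0.81 ± 0.15 (adjusted p = 0.00411), Atf3 at -1.23 ± 0.25 (0.0108) and Atf4 at -0.47 ± 0.11 (0.0401). Atf4 lost its call in 13 of the 24 fits without 1 mouse, with adjusted p up to 0.134. Immediate-early genes, which many stimuli induce within minutes, moved with these values: 8 of 9 were called lower at ZT2 and ZT14, and their summed CPM ran from 3230 to 6430 there, against 4430 to 12600 at ZT10 and ZT22. In the ZT6 and ZT18 libraries, where Ppp1r15a and Atf4 were high, it was 9440 to 12100. Markers of other cells differed too: 2 of 5 red blood cell markers (Hbb-bs and Hba-a1) and 1 of 5 oligodendrocyte markers (Mbp) were called higher at ZT2 and ZT14. None was called among those of microglia (8 of 8 negative, median -0.42), pericytes and smooth muscle (6 of 6 negative, median -0.37), neurons (5 of 5 positive, median 1.22) or brain endothelium (9 of 10 positive, median 0.21). Those of choroid plexus (3 of 3 negative, median -0.15) and astrocytes (4 of 6 positive, median 0.07) were not called either. The part of all these in the values of Ddit3 and the PERK arm was not tested.

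**Figure D4:**
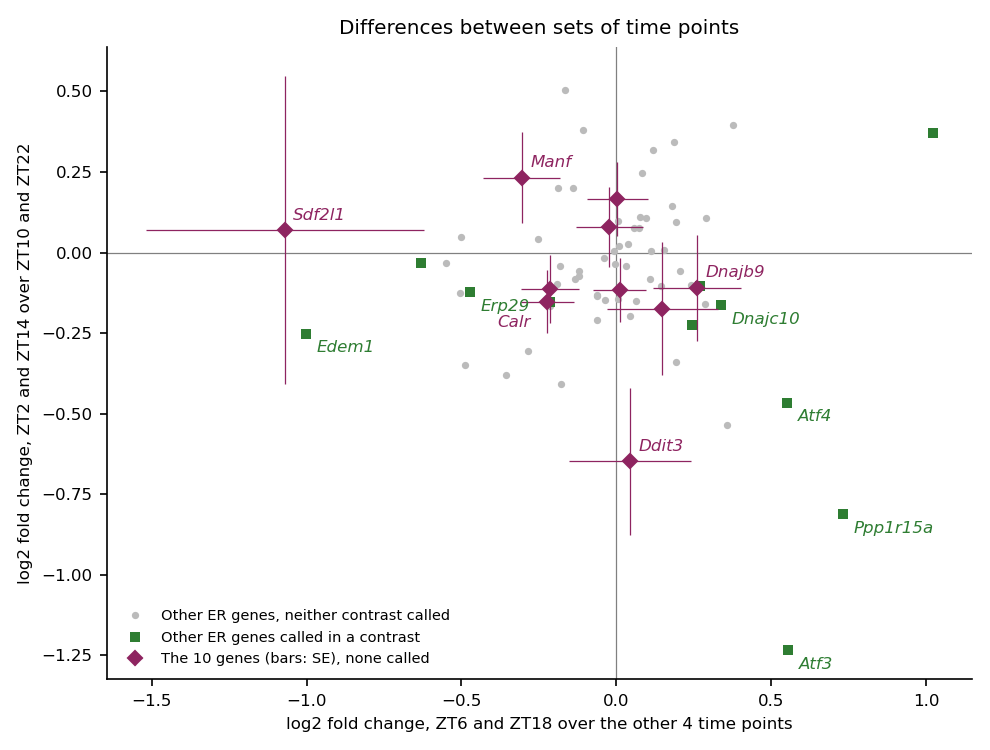
Log2 fold change of ZT6 and ZT18 over the other time points (horizontal) against that of ZT2 and ZT14 over ZT10 and ZT22 (vertical) for the 10 genes with SE bars (diamonds) and 63 other ER genes (squares where called in a contrast, grey points otherwise). Ddit3, which was not called, lies at -0.65 on the vertical axis, on the side of Atf4, Ppp1r15a and Atf3. On the horizontal axis it lies at 0.04, against 0.55 for Atf4 and 0.73 for Ppp1r15a. Most of the 10 lie near the centre, and Sdf2l1 lies at -1.07 on the horizontal axis.

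Whether the genes rose and fell together from mouse to mouse was asked with Hspa5 as the reference, on log2 CPM over 24 mice. Of the 9 relations, that with Calr passed (Pearson r = 0.60, permutation p = 0.00192, adjusted p = 0.0173; Spearman rho = 0.58, adjusted p = 0.0356). Without the 2 mice farthest from the median of Hspa5, r was 0.45 (adjusted p = 0.313). Leaving out extreme mice narrows the range of Hspa5, which lowers r by itself, so this fall does not show that the relation rested on them. Within the 8 ZT6 and ZT18 libraries r was 0.73 (exact permutation test, adjusted p = 0.116) and within the other 16 it was 0.44 (adjusted p = 0.310), so the direction was the same in both and neither passed alone.

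The other relations had r of 0.41 for Manf (adjusted p = 0.120), 0.41 for Sdf2l1 (0.120), 0.40 for Ddit3 (0.120), 0.34 for Pdia4, 0.30 for Dnajb9, 0.30 for Xbp1, -0.03 for Creld2 and -0.16 for Hyou1. With genotype and time point removed from each gene, Calr (r = 0.54) and Dnajb9 (r = 0.57) both passed by Pearson r, at an adjusted p of 0.0278. They did not pass by Spearman's rho (adjusted p = 0.0817 and 0.145). These permutations take no account of the terms that were fitted and removed, so their p-values are too small and no conclusion rests on these passes. The median r of the 8 genes with a mean of 50 or more reads was 0.32, beside -0.00988 for all 9895 such genes, a description over genes that share libraries.

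Over all 45 pairs of the 10 genes the median r was 0.11, and 29 were positive. Calr and Pdia4 had the highest r, 0.76, with 0.73 and 0.88 in the 8 and the 16 libraries. Calr and Sdf2l1 came next at 0.64. Hyou1 and Ddit3 had the lowest, -0.37. The genes whose pattern was most like that of Hspa5 by Pearson r over the 24 mice were Hsp90aa1, the cytosolic Hsp90 (0.76), Peg10 (0.73), Rp2 (0.72), Hsp90b1 (0.72), Malsu1 (0.69), Brwd3 (0.68), Rpgrip1l (0.68), Ppa1 (0.68), Ipo7 (0.66) and Dleu2 (0.65). Hsp90b1 (GRP94), the Hsp90 of the ER, was the only one of these on the wider list, and Calr ranked 32 of 9895.

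**Figure D5:**
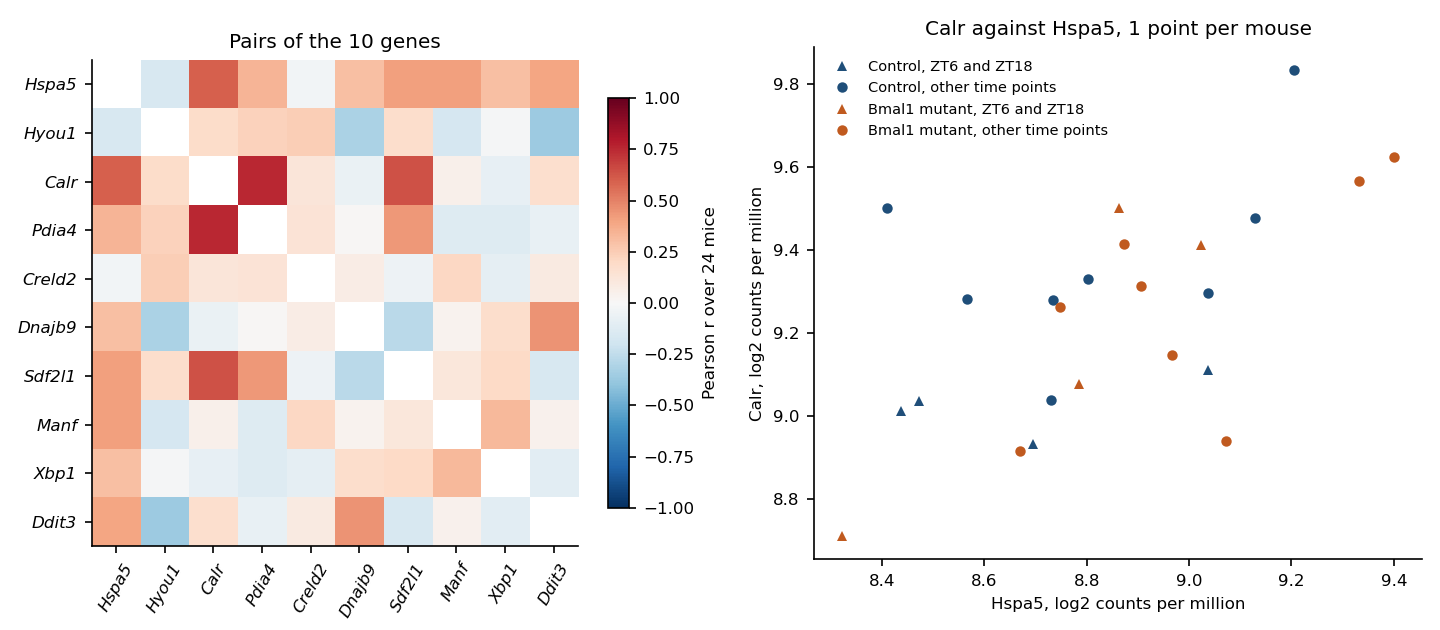
Left, Pearson r over 24 mice for each pair of the 10 genes (colour, from -1 to 1). Right, log2 CPM of Calr against Hspa5, 1 point per mouse, with triangles for ZT6 and ZT18 and circles for other time points; Calr with Pdia4 is the darkest cell (0.76), and Calr rises with Hspa5 (r = 0.60).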

How the data were processed

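The deposited table holds whole-number read counts per gene that the authors normalized by resampling with PORT 0.8.5-beta after alignment with STAR 2.5.3a to GRCm38 with Ensembl v91 annotation (SAMtools 1.3.1 was also used); resampling evens library totals, so original depth is unknown and gene counts keep its counting noise. The values were analysed as counts in R 4.3.3 with edgeR 4.0.16 (TMM, quasi-likelihood test, Benjamini-Hochberg over 15493 genes, threshold 0.05) with time point and genotype as factors, and with genotype by cosine and sine of 24 h for the rhythm difference. DESeq2 1.42.0 was an alternative. meta2d was rewritten in Python 3.11.15 (NumPy 2.4.6, SciPy 1.17.1, pandas 2.3.3); plots used matplotlib 3.10.9. Fits were tested on simulated data. Correlations used 100000 permutations, exact for 8 libraries. Exon lengths came from GENCODE vM21, promoters from RefSeq. Intervals of fold changes are normal 95% intervals from the SE.

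Members and lists were chosen with earlier results of these data known. Named were the 10 genes, Arntl, paralogs, and the 10 genes most correlated with Hspa5 (mean of 50 or more reads). List genes past 0.05 were named, at most 8 per comparison by p, except for ZT6 and ZT18, where all 10 were. Where none passed, the 2 lowest were named. Replicates were single mice. Alternatives were DESeq2, other scalings and filters, the i5 index, a term for the ZT6 and ZT18 libraries or the replicate number, subsets of libraries, and fits without 1 mouse.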

Additional observations from a re-analysis of the deposited data

How the results depend on the processing

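The deposited counts had been brought to near-equal totals, so library depth sets no further limit that can be read from them; the spread between 2 mice per group does, most for Sdf2l1. None of the 10 genes was called for genotype, for the rhythm difference or for ZT2 and ZT14 against ZT10 and ZT22 under any alternative run. Among time points, Hspa5 was gained with DESeq2, with at least 10 reads in every mouse of a genotype, with deposited totals, with no filter and with a replicate block (adjusted p 0.0292). Manf was lost with deposited totals (0.136) and with the block (0.0518). The replicate numbers share only a number: the correlations of same-numbered mice lay between -0.0057 and 0.0218, and with the replicate block the calls over all genes were 45 for genotype, 2070 among time points, 2870 for ZT6 and ZT18 and 143 for ZT2 and ZT14. The cause of the changes below was not tested.

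Over all genes, the 42 genotype calls became 99 with DESeq2, 15 with cosine and sine in place of the time factor, 7 with the i5 index as a covariate, 141 with no filter and 3 in the ZT6 and ZT18 libraries alone. For the rhythm difference, 0 calls became 1 with DESeq2, 1 with the ZT6 and ZT18 libraries as a covariate, 1 with the i5 index and 53 with no filter. Among time points, 2070 calls became 1041 with the i5 index (0 of the 10 genes) and 176 in the other 16 libraries (0 of the 10). For ZT6 and ZT18, 0 of the 10 became 2 (Calr and Manf) with at least 10 reads in every mouse, 2 with DESeq2 and 1 (Sdf2l1) with no filter. For ZT2 and ZT14, 121 calls became 306 with DESeq2, 211 with deposited totals and 408 with no filter, and deposited totals moved the share of higher calls from 49.6% to 20.9%. For the 24 h rhythm in controls, 48 genes became 19 with no filter, 0 at q under 0.05, 14 with the edgeR cosinor and 4 with a replicate block in it. In mutants, 6 became 24 with TMM values, 1 with no filter, 43 with at least 10 reads in every mouse, and 0 at q under 0.05, with the cosinor or with the block. The 1 relation with Hspa5 became 0 within the 8 and 0 within the 16 libraries. It became 2 with genotype and time removed, by p-values that are too small because the removed terms were not allowed for.

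Directions that turned belonged to values that were not called. For genotype, with the i5 index these were Hyou1 (0.00423), Dnajb9 (-0.16) and Ddit3 (-0.17), and in the ZT6 and ZT18 libraries alone Hyou1 (0.12), Calr (0.15), Pdia4 (0.0207), Creld2 (0.19), Dnajb9 (-0.19), Sdf2l1 (0.57) and Ddit3 (-0.24). For ZT6 and ZT18, Pdia4 and Xbp1 turned with at least 10 reads (-0.0246 and -0.032), DESeq2 (-0.000596 and -0.00755) and RLE factors (-0.000568 and -0.00761), and Hyou1 with deposited totals (0.0194). For ZT2 and ZT14, Sdf2l1 turned with the replicate block (-0.0285). Correlations with Hspa5 turned within the 8 libraries for Creld2 (0.31) and Manf (-0.0769), and within the 16 for Sdf2l1 (-0.0235). Without the 2 mice farthest from the median of Hspa5, those of Hyou1 (0.0587) and Creld2 (0.14) turned.

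Without 1 mouse at a time, calls over all genes ran from 25 to 68 for genotype, 0 to 1 for the rhythm difference, 1831 to 2104 among time points (1 to 4 of the 10 genes), 2621 to 2947 for ZT6 and ZT18 (0 to 1 of the 10), 50 to 183 for ZT2 and ZT14, 0 to 82 for rhythm in controls and 0 to 24 in mutants. Log2 fold changes that crossed 0 were, for genotype, Hyou1 (-0.0909 to 0.0119), Calr (-0.0587 to 0.0201) and Dnajb9 (-0.0613 to 0.10), for ZT6 and ZT18, Hyou1 (-0.0654 to 0.0484), Pdia4 (-0.0465 to 0.0667), Xbp1 (-0.0387 to 0.0459) and Ddit3 (-0.0539 to 0.13), and for ZT2 and ZT14, Sdf2l1 (-0.20 to 0.34).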
